A study of Canis lupus familiaris with 4 samples.

Results

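*CCL27*, *CCL28*, *CCL21* and *CXCL12* encode homing chemokines, which guide lymphocytes into skin and lymphoid tissue. They were picked by name, and each was paired with 1 of the 160 targets of a custom canine NanoString panel, giving 4 targets of 160. The panel counts barcoded probes bound to RNA without amplification. The biopsies analysed here were archival, formalin-fixed skin of 4 dogs, and the study set cytotoxic interface dermatitis, in which T cells attack basal keratinocytes, against other inflamed skin. Erythema multiforme (EM), such an interface dermatitis, was represented by a 5-year-old spayed female Boxer. The comparatives were a spayed female Pomeranian of 4 years with cell poor vasculitis (CPV) and 2 neutered male dogs with pyoderma, a bacterial skin infection. Pyoderma case 1 was a Golden Retriever of 7 years and pyoderma case 2 a German Shepherd of 9 years. No treatment was named for any dog, and each biopsy is a single piece of lesional tissue. Both pyoderma dogs were male and older than the EM and CPV dogs, so that sex, age and breed cannot be told apart from the disease. Healthy skin was not analysed here.

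Chemokines of this kind are made steadily by resident tissue rather than only upon infection. CCL27 is made by keratinocytes, and CCL28 by mucosal and glandular epithelium, and both bind the receptor CCR10 on skin-homing T cells and plasma cells. CCL21 is made by lymphatic endothelium and by stromal cells of lymphoid tissue, and draws CCR7-bearing dendritic cells and naive T cells together with the second CCR7 ligand, CCL19. CXCL12 is made by fibroblasts, pericytes and endothelium and acts through CXCR4. No target was paired with *CCR10*, *CCR7* or *CXCR4*, so the ligands are described without their receptors.

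Counts over all targets summed to between 517282 and 808877 per biopsy. Probes that match no dog RNA gave the background (8 negative controls, mean plus 2 SD), which lay between 13.0 and 16.3 counts, and between 137 and 147 targets exceeded it in a biopsy. Normalized counts are counts brought to a common size with 3 housekeeping genes, *HPRT1*, *B2M* and *RPL13A*. The keratin genes *KRT1*, *KRT5* and *KRT14* ranked among the 7 highest of 160 targets in each biopsy, but the biopsies differed widely in their tissue references. *KRT14*, a keratin of basal keratinocytes, had 17869.6 normalized counts in EM, 86770 in CPV, 42258 in pyoderma case 1 and 13027 in pyoderma case 2. *COL1A1*, a dermal collagen gene, ran in the opposite order, with 69257 in EM, 4310 in CPV, 44948 in pyoderma case 1 and 138520 in pyoderma case 2. In bulk tissue, fewer cells of a type and less RNA per cell cannot be told apart.

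*CCL27* (NM_001003968.1) lay near background in part of the biopsies. It was counted 63 times in EM, 15 times in CPV, 42 times in pyoderma case 1 and 18 times in pyoderma case 2. The CPV count lay within its background of 15.2 counts, and the count of pyoderma case 2 exceeded its background of 15.9 by only 2 counts. Normalized counts were 51.7 in EM (95% Poisson limits 39.8 to 66.2), 16.6 in CPV (9.31 to 27.4), 46.0 in pyoderma case 1 (33.2 to 62.2) and 18.6 in pyoderma case 2 (11.02 to 29.4). These limits, like all intervals here, cover counting error only. The biopsies thus formed a higher pair, EM and pyoderma case 1, and a lower pair, pyoderma case 2 and CPV. Within each pair the counting interval of the fold included 1, at 1.12-fold (0.749 to 1.70) for EM over pyoderma case 1 and 1.12-fold (0.532 to 2.38) for pyoderma case 2 over CPV. Between the pyoderma biopsies the difference was 2.47-fold (1.39 to 4.57). EM over CPV was 3.11-fold, a value that rests on the CPV count within background. With a pseudocount of 1 its log2 was 1.58, which became 4.22 after subtraction of background. The latter value rests on the floor of 1 count to which CPV was then set.

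*CCL28* (NM_001005257.1) followed another order. Counts were 47 in EM, 68 in CPV, 182 in pyoderma case 1 and 153 in pyoderma case 2, all above background. After scaling, EM had 38.6 normalized counts (28.4 to 51.3), CPV 75.4 (58.5 to 95.6), pyoderma case 1 199 (172 to 231) and pyoderma case 2 158 (134 to 185). The pyoderma biopsies averaged 179 ± 29.2 (SD, n = 2), and each lay above EM and CPV. Pyoderma case 1 exceeded EM by 5.17-fold (3.73 to 7.28), while the pyoderma biopsies differed from each other by 1.26-fold (1.01 to 1.57). CPV exceeded EM by 1.95-fold (1.33 to 2.90), but by 1.07-fold when the panel total was used for scaling, and the interval lay above 1 under 6 of 9 scalings.

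*CCL21* (NM_001005258.1) was lowest in CPV. It was counted 359 times in EM, 75 times in CPV, 629 times in pyoderma case 1 and 556 times in pyoderma case 2. Normalized counts were 295 in EM (265 to 327), 83.1 in CPV (65.4 to 104), 689 in pyoderma case 1 (637 to 745) and 575 in pyoderma case 2 (528 to 624). CPV was the low biopsy, and the pyoderma biopsies, at 632 ± 81.2 (SD, n = 2), were the high ones. Pyoderma case 1 exceeded CPV by 8.29-fold (6.52 to 10.7) and EM exceeded CPV by 3.55-fold (2.76 to 4.61). The pyoderma biopsies differed by 1.20-fold, and which of them was higher changed when the panel total was used.

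*CXCL12* (NM_001128097.1) was far above background in all biopsies. Its counts were 1851 in EM, 1436 in CPV, 1885 in pyoderma case 1 and 3044 in pyoderma case 2, which gave normalized counts of 1520 (1452 to 1591), 1592 (1511 to 1676), 2066 (1974 to 2161) and 3145 (3035 to 3259). Pyoderma case 2 was the high biopsy, 1.52-fold above pyoderma case 1 (1.44 to 1.61). EM and CPV could not be ordered, with CPV at 1.05-fold of EM (0.977 to 1.12), EM lowest under 5 scalings and CPV lowest under 4. Set against *HPRT1* alone, *CXCL12* had 3.26 counts per *HPRT1* count in EM, 2.91 in CPV, 3.22 in pyoderma case 1 and 5.93 in pyoderma case 2, and the last stood apart from the rest. Per 1000 counts of *B2M*, *CXCL12* had 19.1 in EM, 12.4 in CPV, 26.8 in pyoderma case 1 and 30.0 in pyoderma case 2. With this gene both pyoderma biopsies were high, so the place of pyoderma case 1 depended on the housekeeping gene. CPV was lowest with either gene, but its interval lay apart from the others only with *B2M*. In normalized counts CPV lay above EM when *B2M* was left out of the scaling (1872 against 1405). It lay below EM when *RPL13A* was left out (1357 against 1785).

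**Figure D1:**
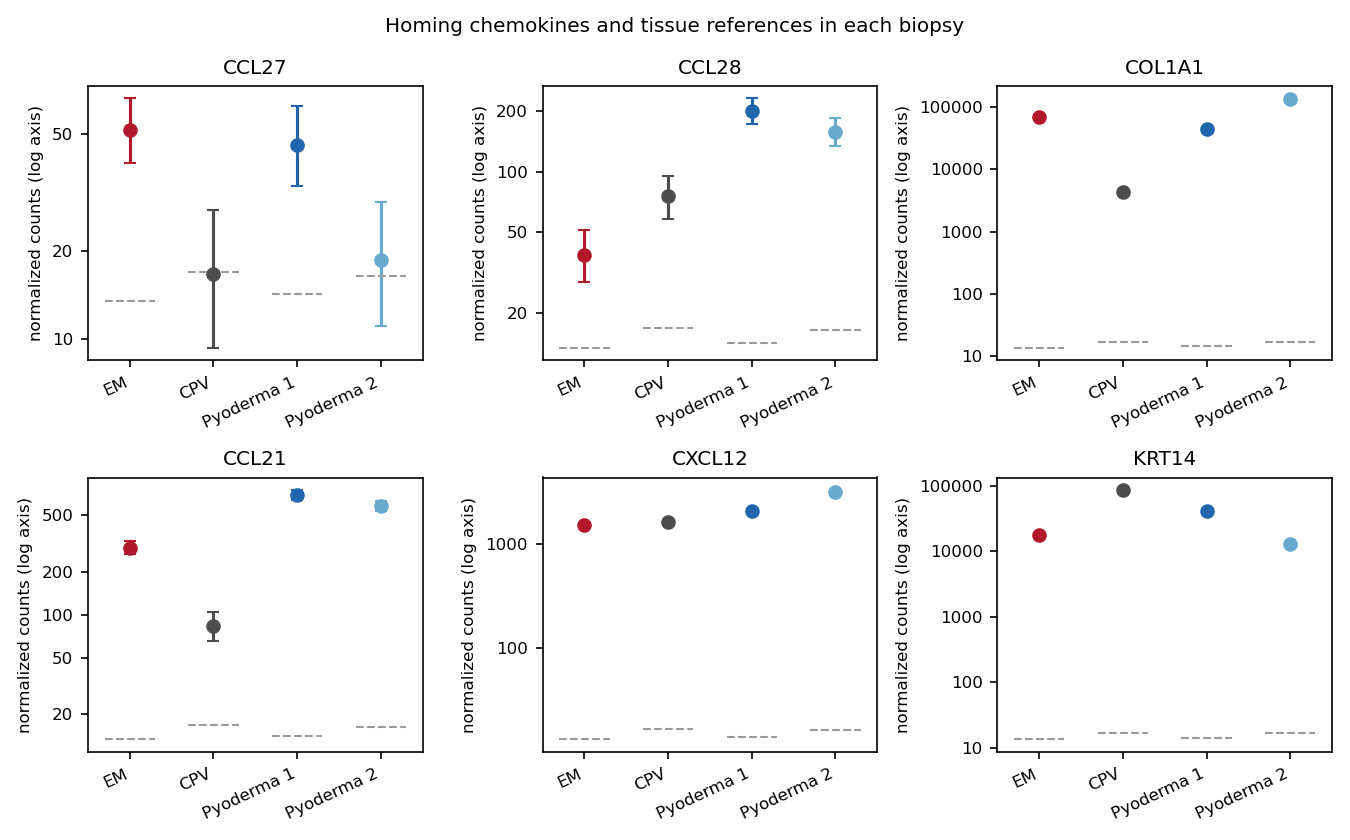
Normalized counts (log axis) of *CCL27*, *CCL28*, *CCL21*, *CXCL12* and the tissue references *COL1A1* and *KRT14* in the EM, CPV and both pyoderma biopsies. Points are single biopsies, bars are 95% Poisson limits and dashed lines mark background. *CCL27* lay near background in CPV and pyoderma case 2, *CCL28* and *CCL21* were highest in both pyoderma biopsies, and *COL1A1* was lowest in CPV at 4310.

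As a measure of how far a target varied, the log2 of the highest over the lowest biopsy was taken with a pseudocount of 1. Without CPV it was 1.22 for *CCL21*, 2.34 for *CCL28* and 1.43 for *CCL27*. Over all 4 biopsies it was 3.04 for *CCL21*, 2.34 for *CCL28*, 1.58 for *CCL27* and 1.05 for *CXCL12*, and its median over all 160 targets was 1.42. Of all targets, 91.2% had a smaller range than *CCL21*, 80.0% a smaller range than *CCL28*, 58.1% a smaller range than *CCL27* and 26.2% a smaller range than *CXCL12*. *COL1A1* and *KRT14* had ranges of 5.01 and 2.74.

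Each disease was set against the other biopsies with edgeR's quasi-likelihood test, adjusted by Benjamini-Hochberg over all 160 targets. The 3 comparisons share the same 4 biopsies and are not independent. In the comparisons of EM or CPV with the rest, the lone biopsy was assumed to vary like the others. An exact permutation test of 1 biopsy against 3 cannot go below 0.25, and of 2 against 2 not below 0.333. None of the 4 chemokines passed an adjusted p of 0.05 in any comparison.

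For pyoderma against EM and CPV, 1 of 160 targets (0.625%) passed the adjusted threshold and 12 (7.5%) an unadjusted p of 0.05, and *CCL21* was 1 of those 12, a place it kept under 6 of 14 alternatives. Its log2 fold change was 1.74 (standard error, SE, 0.730, unadjusted p = 0.0254, adjusted p = 0.508). The log2 fold change of *CCL28* was 1.65 (SE 0.838, adjusted p = 0.642), and that of *CXCL12* was 0.74 (SE 0.668, adjusted p = 0.995). For *CCL27* the fitted value was −0.09 (SE 0.908, adjusted p = 0.995), with EM and pyoderma case 1 on opposite sides at like levels. Over all targets the median was 0.08. Both pyoderma biopsies lay above EM and CPV for 3 of the 4 chemokines and for 30 of 160 targets (18.8%), and both lay below for 0 of the 4 and for 11 of 160 (6.88%). Under all 9 scalings the same held for those 3 chemokines and for 15 of 160 targets (9.38%), although for *CXCL12* pyoderma case 1 exceeded CPV by as little as 1.004-fold and EM by as little as 1.01-fold, with intervals above 1 under 5 and 6 of the 9 scalings.

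For EM against CPV and pyoderma, 0 of 160 targets (0.0%) passed the adjusted threshold in edgeR and 6 (3.75%) an unadjusted p of 0.05, and DESeq2 gave 0 and 11. The log2 fold change was −1.90 for *CCL28* (SE 0.962, adjusted p = 0.714) and 0.93 for *CCL27* (SE 0.802, adjusted p = 0.724), against a median of −0.30 over all targets. With housekeeping scaling EM was the lowest biopsy for 2 of the 4 chemokines, *CCL28* and *CXCL12*, and for 33.8% of all targets, and the highest for 1 of the 4, *CCL27*, and for 21.2% of all targets. EM had the lowest *CCL28* under all 9 scalings. It had the highest *CCL27* under 8 of them, pyoderma case 1 being highest without *HPRT1* in the scaling. *CCL21* and *CXCL12* had log2 fold changes of −0.61 and −0.58, with adjusted p of 0.901 and 0.820 in the same edgeR fit.

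For CPV against EM and pyoderma, 5 of 160 targets (3.12%) passed the adjusted threshold and 17 (10.6%) an unadjusted p of 0.05. *CCL21* was among the 17, at a log2 fold change of −2.64 (SE 0.999, unadjusted p = 0.00858, adjusted p = 0.136 in edgeR). CPV was the lowest biopsy for 2 of the 4 chemokines, *CCL21* and *CCL27*, and for 31.9% of all targets, and the highest for 0 of the 4 and for 26.9% of all targets. For *CCL21* it was lowest under all 9 scalings. The log2 fold changes of *CXCL12* (−0.50), *CCL28* (−0.81) and *CCL27* (−1.22) had SEs of 0.755, 1.07 and 1.08 and adjusted p of 0.889, 0.885 and 0.694. The median over all targets was −0.24. *COL1A1* was 1 of the 5 targets past the threshold and was lower in CPV, at −4.29 on the log2 scale (SE 1.26, adjusted p = 0.0300). That call was lost under 7 of 13 alternatives, among them leaving out the EM biopsy (adjusted p = 0.344), and the log2 fold change ran from −5.02 to −3.73. *KRT14* was higher in CPV by 1.83 on the log2 scale, without passing the threshold (SE 0.824, adjusted p = 0.321).

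**Figure D2:**
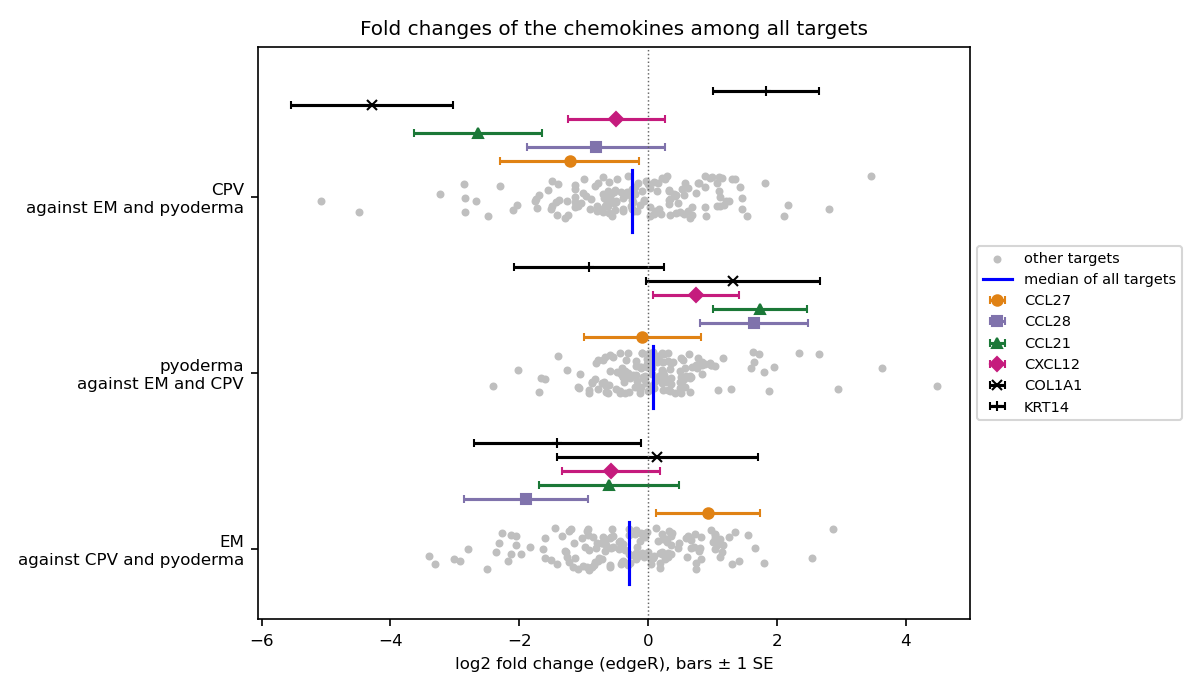
Log2 fold changes from edgeR (horizontal axis) in the 3 comparisons (rows). Coloured symbols are the 4 chemokines, black symbols *COL1A1* and *KRT14*, bars 1 standard error, grey points the other targets and blue lines the median of all targets. *CCL21* lay at −2.64 in CPV and at 1.74 in pyoderma, and *CCL27* and *CCL28* lay on opposite sides of the median in EM.

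**Figure D3:**
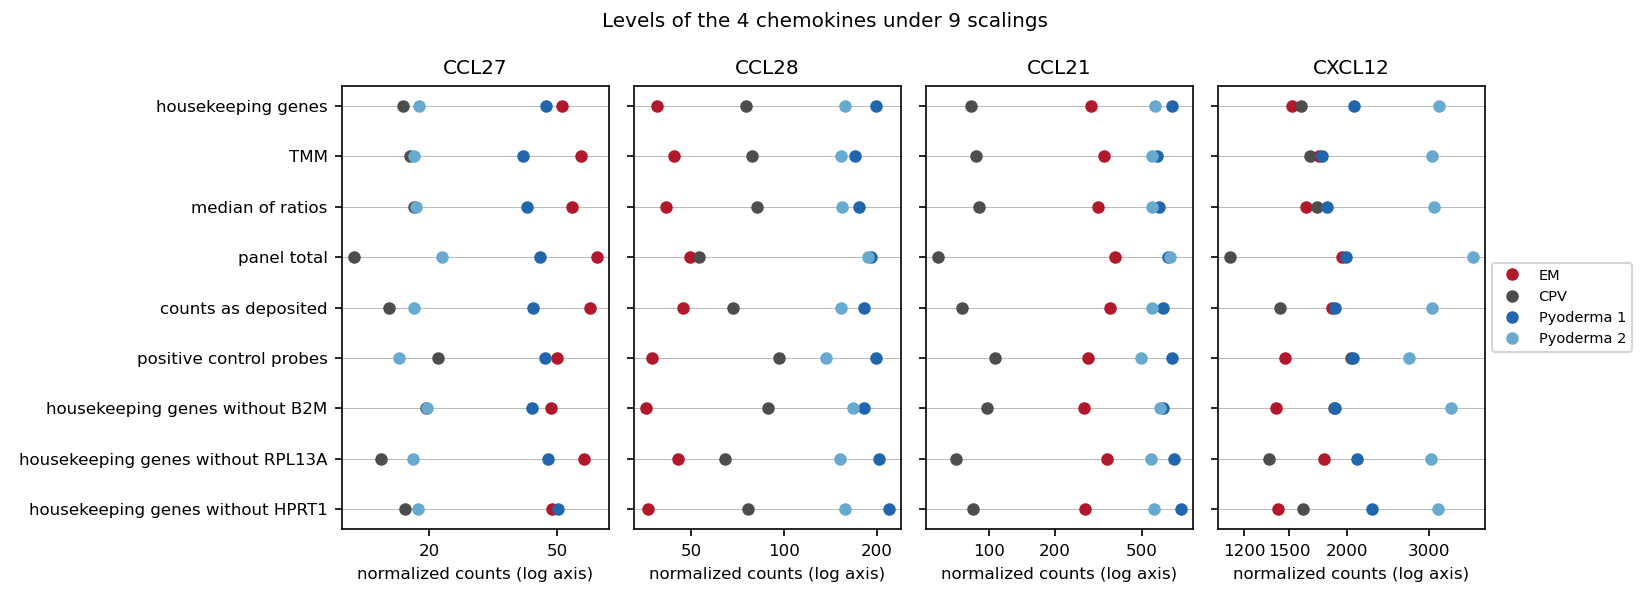
Normalized counts (log axes) of the 4 chemokines in the 4 biopsies, with 1 row for each of the 9 scalings. *CCL28* kept its order of biopsies in every row, CPV was lowest for *CCL21* in every row, and EM and CPV changed places for *CXCL12*.

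The ratio of 2 probes within a biopsy does not depend on the scaling. Its level depends on the probes, so only its change between biopsies is described. For the CCR10 ligands, *CCL27* had 1.34 counts for each *CCL28* count in EM (95% Clopper-Pearson limits 0.904 to 1.999), 0.221 in CPV (0.117 to 0.390), 0.231 in pyoderma case 1 (0.161 to 0.324) and 0.118 in pyoderma case 2 (0.0679 to 0.192). EM was the high biopsy, 5.81-fold above the next, and its interval lay apart from the others, which overlapped. The 3 other biopsies spanned 1.96-fold. Because *CCL27* lay near background, the mean of the negative control probes was subtracted from both counts, after which the ratio was 1.43 in EM, 0.126 in CPV, 0.192 in pyoderma case 1 and 0.0493 in pyoderma case 2. EM remained the highest biopsy, and the values of CPV and pyoderma case 2 rested on 15 and 18 counts of *CCL27* before subtraction.

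The CCR10 ligands were next set against 3 keratinocyte genes. *CCL27* per 1000 counts of *KLK7*, a protease gene of the upper epidermis, was 9.33 in EM, 5.11 in CPV, 4.94 in pyoderma case 1 and 5.92 in pyoderma case 2, where the CPV value rests on a *CCL27* count within background and the last on one just above it. *CCL28* to *KLK7* ranged over 7.22-fold, from 6.96 per 1000 in EM to 50.3 in pyoderma case 2. Against *KRT14*, *CCL27* was highest in EM, at 2.90 per 1000 (2.22 to 3.71), and lowest in CPV, at 0.192 (0.107 to 0.316), although the interval of EM overlapped that of pyoderma case 2 (1.43, 0.846 to 2.26). *CCL28* was also lowest in CPV against *KRT14*, at 0.869 per 1000 (0.675 to 1.10), but highest in pyoderma case 2, at 12.1 (10.3 to 14.2). Against *KRT1*, a keratin of the upper epidermis, *CCL27* ran from 0.180 per 1000 in CPV to 1.25 in EM and *CCL28* from 0.817 in CPV to 4.16 in pyoderma case 2. Neither ligand was thus in a fixed proportion to the basal keratin.

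For the stromal and vessel chemokines the ratio to collagen was examined next. *CCL21* per 1000 counts of *COL1A1* was 4.26 in EM (3.83 to 4.72), 19.3 in CPV (15.1 to 24.2), 15.3 in pyoderma case 1 (14.2 to 16.6) and 4.15 in pyoderma case 2 (3.81 to 4.51). The biopsies fell into pairs whose intervals overlapped, EM with pyoderma case 2 and CPV with pyoderma case 1. CPV, lowest in *CCL21* itself, was therefore among the highest relative to collagen. The pyoderma biopsies, alike in *CCL21*, differed 3.70-fold in this ratio.

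*CXCL12* was set against collagen in the same way. Per 1000 counts of *COL1A1* it had 21.9 in EM, 369 in CPV, 46.0 in pyoderma case 1 and 22.7 in pyoderma case 2. CPV stood 8.04-fold above the next biopsy, with the lowest *COL1A1* count of the 4 (3888) and also the lowest *CXCL12* count (1436). EM and pyoderma case 2 differed by 1.03-fold, with overlapping intervals.

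Relative to *KRT14* the order turned. *CCL21* per 1000 counts of *KRT14* was 16.5 in EM, 0.958 in CPV, 16.3 in pyoderma case 1 and 44.1 in pyoderma case 2, a range of 46.0-fold. *CXCL12* per 1000 counts of *KRT14* was 85.1 in EM, 18.3 in CPV, 48.9 in pyoderma case 1 and 241 in pyoderma case 2, a range of 13.2-fold. CPV was lowest and pyoderma case 2 highest for both. The choice of reference thus decided the place of CPV, and *COL1A1* and *KRT14* were themselves at their extremes in that biopsy; the part of tissue composition in the chemokine values was not tested.

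The ratio of *CCL21* to *CXCL12* needs neither reference. It was 0.194 in EM (0.173 to 0.217), 0.0522 in CPV (0.0408 to 0.0659), 0.334 in pyoderma case 1 (0.304 to 0.365) and 0.183 in pyoderma case 2 (0.167 to 0.200). CPV was low by 3.497-fold against the next biopsy, and the other 3 spanned 1.83-fold.

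**Figure D4:**
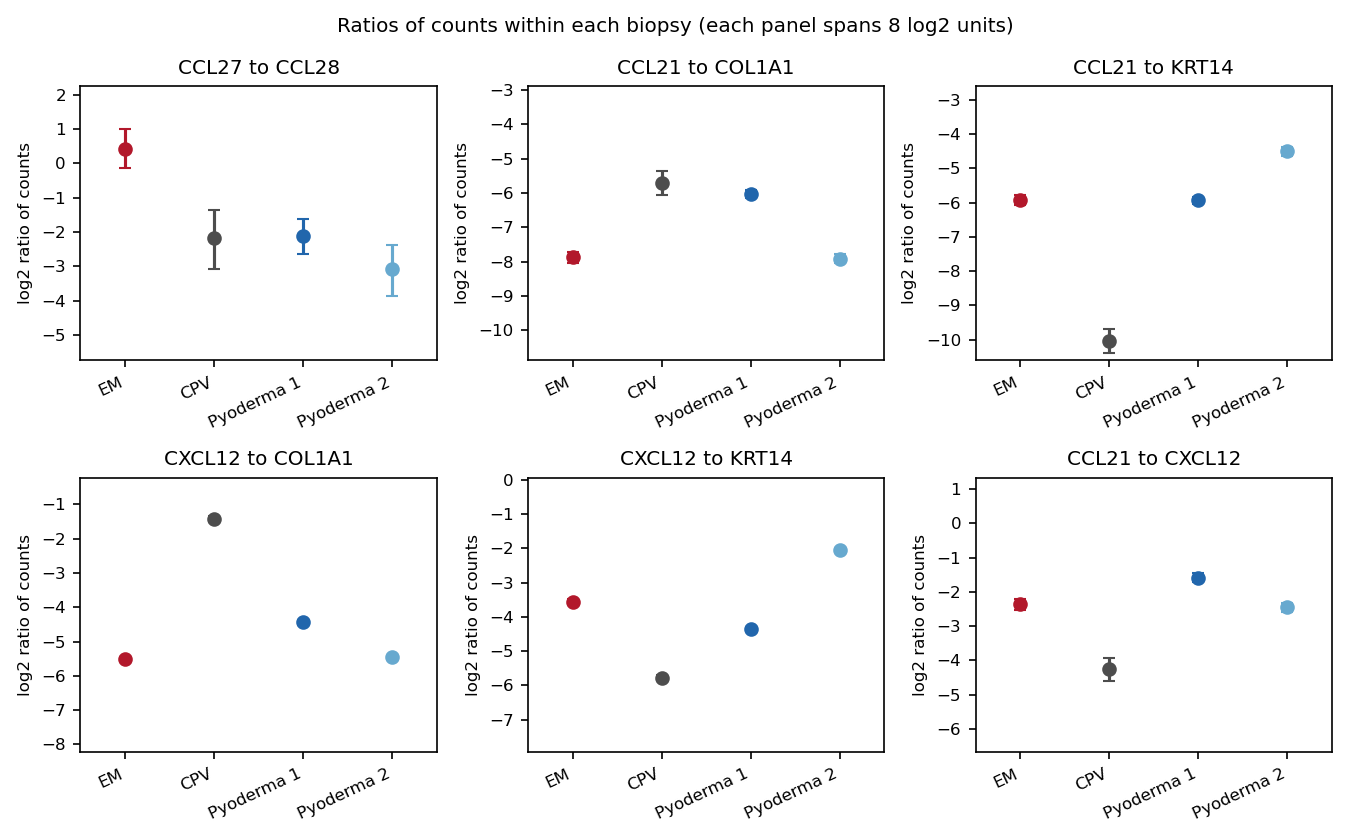
Log2 ratios of counts within each biopsy for 6 pairs of genes, each panel spanning the same number of log2 units. Points are single biopsies and bars 95% Clopper-Pearson limits. EM stood above the others for *CCL27* to *CCL28*, CPV above the others for *CXCL12* to *COL1A1* and below the others for *CCL21* to *CXCL12*.

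Likeness between targets was measured as the SD of the log2 ratio over the 4 biopsies, among 111 targets with a mean of at least 50 counts, and the median over all 6105 pairs was 1.04. With only 4 biopsies this is a description. *CCL27* itself had a lower mean than that and was set against all 111. *CCL27* and *CCL28* had an SD of 1.48 to each other, larger than that of 74.0% of pairs. Other targets are named here only where they had a symbol, and targets without one lay between them. *CCL27* was closest to *PPARG* (SD 0.21), a nuclear receptor gene of fat and sebaceous cells, then to *KIT* (0.22), a receptor gene of mast cells and melanocytes, and to *KLK7* (0.40). *PPARG* had 601 normalized counts in EM, 146 in CPV, 405 in pyoderma case 1 and 182 in pyoderma case 2. That its high and low biopsies were those of *CCL27* follows from its choice as the closest named target. The low ones, CPV and pyoderma case 2, had *CCL27* counts near background.

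Among targets with a symbol, *CCL28* was closest to *IL1B* (SD 0.14), an inflammatory cytokine gene, followed by *TNF* (0.63) and *IFNG* (0.68). *IL1B* had 28.7 normalized counts in EM, 72.1 in CPV, 168 in pyoderma case 1 and 137 in pyoderma case 2. Over the biopsies the ratio of *CCL28* to *IL1B* varied by 1.28-fold. This narrow range follows from the choice of *IL1B* as the closest named target.

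Of the named targets, *CCL21* was closest to *MS4A2* (SD 0.49), a chain of the high-affinity IgE receptor of mast cells, then to *CCL4* (0.86) and *CCL19* (0.90). *MS4A2* had 204 normalized counts in EM, 48.8 in CPV, 615 in pyoderma case 1 and 228 in pyoderma case 2. *KIT* was the other mast cell marker of the 2 of 3 listed ones paired with a target. It had 466 in EM, 152 in CPV, 419 in pyoderma case 1 and 232 in pyoderma case 2. Both markers were lowest in CPV, as were *CCL21* and 31.9% of all targets. *MS4A2* was named for its likeness to *CCL21*, so its low value in CPV is no separate result. Summed over both, the mast cell markers had 670 normalized counts in EM, 201 in CPV, 1033 in pyoderma case 1 and 461 in pyoderma case 2. This sum includes *MS4A2*, and in EM *KIT*, which is also a gene of melanocytes, made up the larger part of it. Any part of mast cells in the *CCL21* values was not tested. *COL1A1* had an SD of 1.19 to *CCL21*, with 23.6% of targets closer, and *KRT14* one of 2.38, with 94.5% closer.

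Among targets with a symbol, *CXCL12* was closest to *SELPLG* (SD 0.19), the P-selectin ligand of leukocytes, followed by *TNF* (0.34) and *CCL8* (0.34). *SELPLG* had 307 normalized counts in EM, 404 in CPV, 500 in pyoderma case 1 and 613 in pyoderma case 2. Its likeness to *CXCL12* follows from its choice as the closest named target. Neither tissue reference was close to *CXCL12*, with an SD of 1.91 to *COL1A1* and 1.55 to *KRT14*, and 94.5% and 89.1% of targets closer. This was not particular to *CXCL12*. For *CCL27*, 94.6% of targets were closer than *COL1A1* and 86.5% closer than *KRT14*, and for *CCL28* 94.5% and 80.0%.

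Other genes of lymphocyte homing were sought from a list of 21, of which 4 were paired with a target, *CCL19*, *CCL17*, *CCL20* and *CCL25*. None of them passed the adjusted threshold in either direction in any of the 3 comparisons. Their median log2 fold change was 0.45 in pyoderma (0.08 over all targets), 0.00 in EM (−0.30) and −0.86 in CPV (−0.24). *CCL19* had 922 normalized counts in EM, 443 in CPV, 837 in pyoderma case 1 and 1153 in pyoderma case 2. CPV was low for both CCR7 ligands, but the ratio of *CCL21* to *CCL19* still varied, from 0.188 in CPV (0.145 to 0.241) and 0.320 in EM (0.283 to 0.360) to 0.498 in pyoderma case 2 (0.449 to 0.552) and 0.823 in pyoderma case 1 (0.740 to 0.916). The intervals of this ratio did not overlap between any of the biopsies. *CCL20*, the CCR6 ligand, was highest in pyoderma case 1, at 385 normalized counts, and had 175 in EM, 142 in CPV and 160 in pyoderma case 2. *CCL17*, a ligand of CCR4, was counted between 17 and 30 times and *CCL25*, a ligand of CCR9, between 7 and 23 times, so that both stayed near background.

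Of the cell type markers, none of 8 listed for vessel endothelium and none of 5 for T cells was paired with a target, so that *CCL21* and *CXCL12* are not set against such markers here; 88 of the 160 targets had no symbol. *MS4A1*, the 1 of 7 B and plasma cell markers paired, had 57.5 normalized counts in EM, 79.8 in CPV, 122 in pyoderma case 1 and 54.8 in pyoderma case 2. *CD86*, the 1 of 5 for dendritic cells, had 474 in EM, 1262 in CPV, 676 in pyoderma case 1 and 869 in pyoderma case 2. Neither shared the order of any of the 4 chemokines. *CEACAM1*, the 1 of 4 for neutrophils, had 315 in EM, 2083 in CPV, 837 in pyoderma case 1 and 1005 in pyoderma case 2. It was highest in CPV, as were *CD86* and 26.9% of all targets. This single marker does not measure the content of neutrophils. The 4 of 8 keratinocyte markers had a median log2 fold change of 0.90 in CPV, −0.34 in pyoderma and −0.66 in EM, and the 3 of 5 melanocyte markers one of −0.51, −1.26 and 1.67. The part of these cell types in the chemokine values was not tested.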

How the data were processed

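RNA of 4 FFPE skin biopsies (1 EM, 1 CPV, 2 pyoderma) was hybridized by the authors to a custom NanoString panel and read on a Sprint machine. The deposited values are raw counts per probe, without scaling, for 160 targets, 6 positive and 8 negative control probes. The positive controls, which scaling by housekeeping genes does not use, differed by 1.79-fold between biopsies, and the software version is not given in the sources used here. Symbols came from a RefSeq gene table of the assembly UU_Cfam_GSD_1.0, matched by transcript without version for 72 of 160 targets. *CCZ1*, the fourth housekeeping gene named by the authors, was not paired and not used here. Positive and negative control probes were told apart by their counts.

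Genes were fitted with edgeR 4.0.16 (R 4.3.3) on all targets without a filter, with sizes from the housekeeping genes. The standard error is the log2 fold change divided by the square root of F. The fit was tested on simulated data. At a dispersion (variation beyond counting error) of 0.3, 8-fold changes passed the adjusted threshold in 34.7% (EM), 45.3% (pyoderma) and 29% (CPV). For 3-fold changes the shares were 6%, 9.67% and 4%. At a dispersion of 0.05 the 8-fold shares were 98%, 95% and 96.7%. The dispersion of the data was 0.327, 0.331 and 0.294 in these comparisons. A chemokine that did not pass can therefore still differ. Alternatives were 8 other scalings, DESeq2 1.42.0, leaving out each biopsy, subtracting background, a filter at 20 counts, and a pseudocount of 10 or 0.5. Python 3.11.15, scipy 1.17.1 and matplotlib 3.10.9 served for the rest. The labels name separate dogs, and depth gives Poisson limits for counting error only.

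The chemokines, gene lists and tests were chosen with earlier results of these data known. Named genes are the chemokines, *COL1A1*, *KRT14*, the housekeeping genes, listed pathway and cell type genes, and the 3 named targets closest to each chemokine. Keratinocyte markers paired were *KRT14*, *KRT5*, *KRT1* and *KLK7* (4 of 8), with none called in any comparison.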

Additional observations from a re-analysis of the deposited data

How the results depend on the processing

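Of 160 fold changes of the 4 chemokines recomputed under alternatives, 157 kept their direction, and none passed the adjusted threshold. The 3 others were of *CCL27* in pyoderma against EM and CPV, 0.066 without *HPRT1* in the scaling, 0.95 without EM and 0.42 without pyoderma case 2, in place of −0.09 (−0.88 to 0.95 with each biopsy left out). For *COL1A1* in EM the sign turned to −0.0069 without *B2M*, −0.41 without CPV and −0.04 without pyoderma case 1 (−0.41 to 1.49 with each left out), and for *KRT14* in pyoderma to 0.63 without CPV (−2.01 to 0.63). Targets past the threshold in pyoderma, 1 of 160, were 0 with the panel total, TMM, counts as deposited, the median of ratios, the filter at 20 counts or scaling without *B2M* or *RPL13A*, 3 with the positive control probes or DESeq2, and 4 without *HPRT1*, and ran from 1 to 3 with each biopsy left out. In CPV, 5 became 0 with TMM, the panel total and the counts as deposited, 1 with the median of ratios and DESeq2 and 3 without *HPRT1*, and from 1 to 5 with a biopsy left out. In EM, 0 became 0 to 2. Over all targets the median fold change (log2) ran over the 9 scalings from −0.17 to 0.22 in pyoderma, −0.47 to 0.09 in EM and −0.94 to 0.19 in CPV.

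The log2 range over biopsies of *CCL27* went from 1.58 to 4.22 after subtraction of background, where the CPV count, within background, was set to 1. That of the *CCL27* to *CCL28* ratio went from 3.43 to 6.07. Its lowest biopsy was pyoderma case 2, whose *CCL27* count of 18 lay just above its background of 15.9. The range of *CCL21*, 3.04, was 3.51 with the panel total, 2.68 with the positive control probes and 2.67 without *B2M*. That of *CXCL12*, 1.05, was 0.87 with TMM, 0.91 with the median of ratios, 1.73 with the panel total, 0.89 with the positive control probes, and 1.25, 1.15 and 1.14 without *B2M*, *RPL13A* and *HPRT1*. With each biopsy left out the log2 ranges ran from 1.42 to 1.58 (*CCL27*), 1.39 to 2.34 (*CCL28*), 1.22 to 3.04 (*CCL21*, lowest without CPV) and 0.44 to 1.05 (*CXCL12*, lowest without pyoderma case 2). For ratios they ran from 0.93 (without EM) to 3.43 for *CCL27* to *CCL28*, 1.89 to 2.23 for *CCL21* to *COL1A1*, 1.44 (without CPV) to 5.51 for *CCL21* to *KRT14*, 1.07 (without CPV) to 4.07 for *CXCL12* to *COL1A1*, 2.21 to 3.72 for *CXCL12* to *KRT14* and 0.87 (without CPV) to 2.66 for *CCL21* to *CXCL12*. No paired analysis was possible because the biopsies came from separate dogs. The cause of these changes was not tested beyond what each alternative alters.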
